A study of Mus musculus with 13 samples.

Results

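Bach2, Foxo1 and 7 further genes tied to the resting state of T cells were read in RNA-seq libraries of mouse Th17 cells. The 9 genes were chosen by symbol: Bach2, Foxo1, Tcf7, Lef1, Klf2, Ccr7, S1pr1, Il7r and Satb1. They are 9 of the 56941 gene rows of the count table, and all 9 passed the filter on low counts that left 14681 genes for testing. Naive CD4 T cells from mouse spleen had been activated and kept for 72 hours in culture conditions that polarise toward Th17 cells, the helper T cells known for interleukin 17. The WT group is labelled Chaf1bWT, with no statement of whether a Cre is present. The KO group is labelled Chaf1bfl/fl;Il17fCre+, so that recombination of Chaf1b depends on the Il17f promoter and can take place only in cells that turn Il17f on. Each group had 3 libraries, called biological replicates in the labels, with no word on animals, and p-values therefore measure the spread between these libraries.

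In a resting T cell the forkhead factor FOXO1 stays in the nucleus and keeps a set of homing and survival genes on. Klf2, itself a transcription factor gene, and the genes of the CCR7, S1PR1 and IL-7 receptors are classical members of that set. Signals through PI3K and AKT phosphorylate FOXO1 and send it out of the nucleus when the cell is activated. BACH2 binds with small MAF proteins to sites that AP-1 factors also use and represses effector genes. TCF-1 (gene Tcf7) and LEF-1 are related HMG box factors of naive and memory T cells, and SATB1 organises chromatin loops in lymphocytes.

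The promoter sequences of Bach2 and Foxo1 are shown because these were the pair of genes that passed the test below. Each run is the 250 bases before the start of the gene's RefSeq promoter entry in the GRCm38.p6 build, read 5′ to 3′ on the gene's strand. An entry marks a start listed for the gene, and some genes have several. Whether the entries of Bach2 and Foxo1 mark the outermost or the most used start was not checked. The Bach2 stretch lies on the plus strand at chr4:32417185-32417434 and the Foxo1 stretch on the plus strand at chr3:52268087-52268336. Capitals mark a CCAAT box (CCAAT) or a GC box (GGGCGG) on either strand, sequence elements common in promoters.
Bach2: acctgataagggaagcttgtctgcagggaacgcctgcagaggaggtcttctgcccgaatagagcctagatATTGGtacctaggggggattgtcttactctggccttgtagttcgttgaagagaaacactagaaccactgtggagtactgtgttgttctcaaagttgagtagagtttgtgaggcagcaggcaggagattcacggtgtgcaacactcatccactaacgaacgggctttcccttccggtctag
Foxo1: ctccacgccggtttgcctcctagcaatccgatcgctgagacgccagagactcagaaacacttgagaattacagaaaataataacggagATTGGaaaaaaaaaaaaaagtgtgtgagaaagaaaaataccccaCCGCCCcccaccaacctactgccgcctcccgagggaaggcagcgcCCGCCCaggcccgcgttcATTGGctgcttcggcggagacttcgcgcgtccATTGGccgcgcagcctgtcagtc
The Bach2 stretch held 1 CCAAT box and no GC box, and 50.4% of its bases were G or C. In the Foxo1 stretch there were 3 CCAAT boxes and 2 GC boxes, with 56.0% G or C. Among all 32851 RefSeq promoter entries, 33.9% held a CCAAT box and 32.7% a GC box in the same window. Of the 9 genes 7 had an entry, with 15 entries between them. The letters of a forkhead site (GTAAACA), an AP-1 site (TGANTCA) or the TCF/LEF sites CTTTGAA and CTTTGAT were in none of these 15 windows on either strand, and were in 3.17%, 6.75%, 4.46% and 3.21% of all entries. The GC box letters appeared in entries of Foxo1, Lef1, Klf2, Tcf7 and Satb1, and the CCAAT letters in those of Foxo1, Bach2 and Il7r. A match or its absence describes these letters in these windows only.

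Library totals ran from 35708879 to 45232055 counts. WT replicate 1 stood apart from the other WT libraries, with a chi-square per degree of freedom of 18.8 and 33.1 against WT replicates 2 and 3, where those differed from each other by 7.54 and the KO libraries among themselves by 4.19 to 4.53. Results that rest on it are therefore given with and without that library. Transcripts of Chaf1b were no fewer in KO (12.0 ± 0.990 CPM in WT, 14.9 ± 1.38 CPM in KO, n = 3 each, adjusted p = 0.130), and the deleted part is not given in the sources used here, so the count does not check the genotype and the groups are named by their labels. All 9 Th17 markers were counted, and their sum was 703 to 916 CPM in WT and 568 to 597 CPM in KO. Among B cell markers the sum was 68.7 to 81.8 CPM in WT and 96.9 to 103 CPM in KO, with 2 members higher (Ighm, 54.3 to 85.0 CPM by group mean, and Cd79b, 2.84 to 4.75 CPM) and 1 lower (Ebf1, 15.6 to 9.85 CPM), while the defining genes Ms4a1 and Pax5 reached at most 0.114 and 0.390 CPM, with Pax5 at 0 counts in every KO library. The 5 gamma delta T cell markers summed to 50.7 to 62.6 CPM in WT and 95.8 to 101 CPM in KO, and the 8 myeloid and dendritic cell markers to 1.85 to 2.57 and 6.49 to 7.76 CPM. Of the gamma delta markers 4 were higher, with Trdc the largest part (41.2 to 65.7 CPM by group mean), while Sox13 did not pass (0.547 to 0.420 CPM). Of the myeloid and dendritic cell markers 3 were tested and 1 was higher, Fcer1g (0.770 to 4.27 CPM), which made up most of the difference in that sum. For each of these 4 sums the groups did not overlap, and the two-sided exact permutation test gave p = 0.1, the smallest value that 3 against 3 libraries allow. CD8 T cell markers summed to 14.1 to 16.0 CPM in WT and 12.4 to 16.6 CPM in KO (exact permutation p = 1), NK cell markers, of which 3 of 4 had no counts, to 0.308 to 1.19 CPM in WT and 0.136 to 0.285 CPM in KO (no overlap, exact permutation p = 0.1), and erythroid markers stayed at or below 0.427 CPM. The part of these cell types in the results below was not tested.

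The comparison asked how the transcripts of these resting-state genes differ between the genotypes. Bach2 and Foxo1 were lower in the libraries labelled KO, 1.63-fold and 1.36-fold, and the other 7 genes did not pass the test. No member was higher. The share of members lower was 2 of 9, where 2.47% of the 14681 tested genes were lower and 3.92% were higher. All 9 fitted log2 fold changes (KO over WT) were below 0, as were 51.3% of all tested genes, and their median was -0.23 beside -0.0064 for all genes. Without WT replicate 1 the same direction was left in 4 of 9 members, with 50.1% of all genes below 0, and the median of the 9 was 0.0054. The same pair was called in that fit, Bach2 and Foxo1, where 9.12% of 15039 genes were lower and 10.6% higher. In 4 of the 9 genes, Bach2, Foxo1, Lef1 and Ccr7, every KO library lay below every WT library, which was so in 12.4% of tested genes (26.8% in either direction). In bulk libraries fewer cells of a type and less RNA per cell cannot be told apart.

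**Figure D1:**
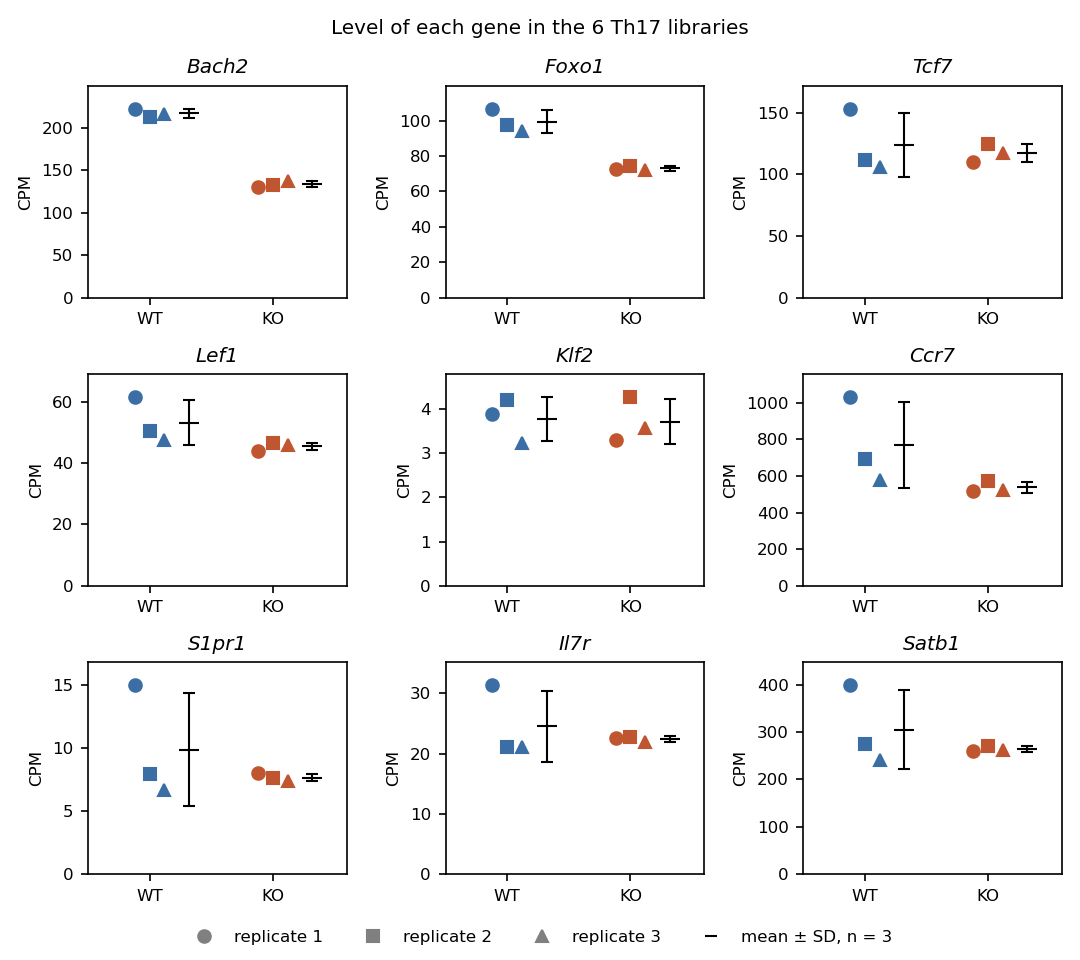
Level of each of the 9 genes in CPM (vertical axes from 0) in the 3 WT (blue) and 3 KO (orange) libraries, with the replicate number as the symbol and the mean ± SD (n = 3) in black. Bach2 and Foxo1 are separated by genotype with little spread, while in Tcf7, Ccr7, S1pr1, Il7r and Satb1 WT replicate 1 (circle) lies above the other 5 libraries.

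Bach2 (ENSMUSG00000040270.17), the repressor that holds back effector genes, showed the clearest separation of the 9. In CPM, counts scaled by library size, it was at 222, 212 and 216 in WT replicates 1 to 3 and at 131, 132 and 137 CPM in the KO replicates, from 8146 to 9826 and 4582 to 5049 counts. The WT libraries lay close together, as did the KO libraries, and the groups were far apart. The group means were 217 ± 5.04 and 133 ± 3.48 CPM (SD, n = 3), a log2 fold change of -0.70 ± 0.047 (SE; 95% interval -0.81 to -0.60), and its adjusted p was 1.04e-05 by edgeR's quasi-likelihood test. By p-value Bach2 ranked 13 of the 14681 genes. In fits without 1 library the log2 fold change stayed between -0.73 and -0.68, with adjusted p of at most 6.49e-04. The antisense transcript Bach2os overlaps Bach2 in RefSeq and had 39 to 107 counts per library, far fewer than Bach2. Counting without strand does not tell reads of such a pair apart.

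Foxo1 (ENSMUSG00000044167.7), the forkhead factor of the resting state, was lower by a smaller step. Its level was 107, 97.5 and 94.0 CPM in WT and 72.5, 74.4 and 71.9 CPM in KO, from 3740 to 4377 and 2544 to 2836 counts. Every WT value was above every KO value, and the highest WT value was again that of replicate 1. Means were 99.4 ± 6.54 and 72.9 ± 1.27 CPM (SD, n = 3), and the fitted change was -0.45 ± 0.059 on the log2 scale (95% interval -0.58 to -0.32), with adjusted p = 0.00134 in the same edgeR test. Leaving out 1 library at a time gave values from -0.49 to -0.39 and adjusted p of at most 0.0195. The 95% intervals of Bach2 and Foxo1 did not overlap. The ratio of Bach2 CPM to Foxo1 CPM, a comparison chosen after the values were seen, was 2.08, 2.18 and 2.30 in WT and 1.80, 1.78 and 1.91 in KO. The ratio was lower in all 3 KO libraries, with an exact permutation p of 0.1 (two-sided), the smallest possible here.

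The HMG box factors Tcf7 and Lef1 and the chromatin organiser Satb1 did not pass. Tcf7 (ENSMUSG00000000782.17) was at 153, 112 and 106 CPM in WT and 110, 125 and 118 CPM in KO, so that the KO libraries lay inside the WT range. Its log2 fold change was -0.073 ± 0.13 (SE), with an interval from -0.36 to 0.22 (adjusted p = 0.800), and 0.11 ± 0.05 without WT replicate 1 (interval from 0.011 to 0.21, adjusted p = 0.116). Tcf7 overlaps Skp1, a ubiquitin ligase subunit gene with 3947 to 5122 counts, and without strand the reads of the shared part cannot be told apart. Lef1 (ENSMUSG00000027985.15) was at 61.6, 50.5 and 47.6 CPM in WT and 44.1, 46.5 and 45.8 CPM in KO. The groups did not overlap, but WT replicate 3 and KO replicate 2 were close, and the log2 fold change of -0.23 ± 0.09 (interval from -0.42 to -0.03) had an adjusted p of 0.172. It was -0.11 ± 0.062 without WT replicate 1 (adjusted p = 0.242). Lef1 passed without WT replicate 3 (-0.30, adjusted p = 0.0487) and when low counts were not filtered out (adjusted p = 0.0367). Satb1 (ENSMUSG00000023927.16) was at 399, 274 and 242 CPM in WT and 259, 271 and 261 CPM in KO. Its KO libraries lay between WT replicates 2 and 3. The log2 fold change was -0.21 ± 0.18 (interval from -0.66 to 0.24, adjusted p = 0.591), and 0.035 ± 0.045 without WT replicate 1 (interval from -0.06 to 0.13, adjusted p = 0.665).

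Klf2, which FOXO1 controls and which itself drives S1pr1, was counted low in every library. Klf2 (ENSMUSG00000055148.8) was read 147 to 161 times per WT library and 116 to 163 times per KO library, which is 3.88, 4.20 and 3.23 CPM in WT replicates 1 to 3 and 3.30, 4.27 and 3.56 CPM in the KO replicates. The groups covered nearly the same range. The log2 fold change was -0.018 ± 0.18 (interval from -0.41 to 0.38, a fold of 0.751 to 1.30, adjusted p = 0.968). At these counts and this spread between libraries, a difference inside that interval remains possible.

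The receptors for leaving lymphoid tissue and for homing to lymph nodes, S1pr1 and Ccr7, had lower means in the libraries labelled KO without passing. S1pr1 (ENSMUSG00000045092.9), whose product senses sphingosine 1-phosphate, was at 15.0, 7.95 and 6.63 CPM in WT and 7.98, 7.63 and 7.36 CPM in KO. WT replicate 1 held 615 counts, where the other 5 libraries held 271 to 305. With all libraries the log2 fold change was -0.36 ± 0.26 (interval from -0.95 to 0.23, adjusted p = 0.487), and without that library 0.073 ± 0.14 (interval from -0.21 to 0.36, adjusted p = 0.786). Ccr7 (ENSMUSG00000037944.9), the chemokine receptor for entry into lymph nodes, was at 1033, 691 and 581 CPM in WT and 518, 573 and 521 CPM in KO. All WT values were above all KO values, although WT replicate 3 and KO replicate 2 were close. The log2 fold change of -0.51 ± 0.22 (interval from -1.08 to 0.05) had an adjusted p of 0.272. Without WT replicate 1 it was -0.24 ± 0.082 (interval from -0.44 to -0.04, adjusted p = 0.102), and Ccr7 passed with limma-voom and quality weights per library (-0.36, adjusted p = 0.00484).

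Il7r (ENSMUSG00000003882.6), the IL-7 receptor alpha chain that sustains resting T cells, was at 31.4, 21.0 and 21.1 CPM in WT and 22.7, 22.8 and 21.9 CPM in KO. The KO libraries lay above WT replicates 2 and 3 and below WT replicate 1. Its log2 fold change was -0.13 ± 0.14 (interval from -0.44 to 0.19, adjusted p = 0.675), and 0.092 ± 0.083 without WT replicate 1 (interval from -0.08 to 0.26, adjusted p = 0.506).

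**Figure D2:**
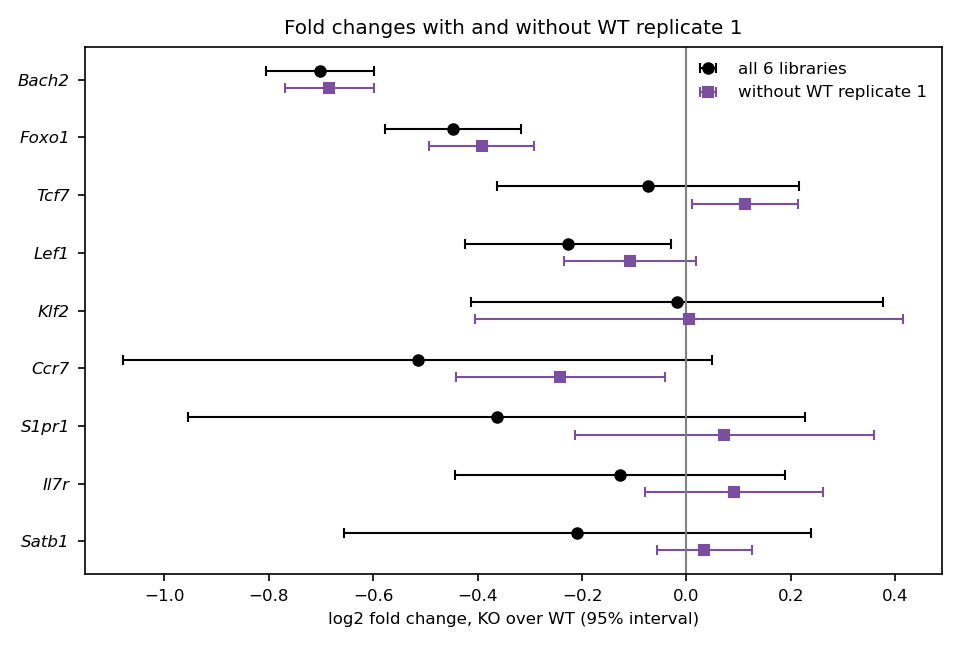
Log2 fold change, KO over WT, of each gene with its 95% interval from edgeR, with all 6 libraries (black circles) and without WT replicate 1 (purple squares). Bach2 and Foxo1 lie below 0 in both fits (-0.70 and -0.68 for Bach2, -0.45 and -0.39 for Foxo1), while the points of Tcf7, Klf2, S1pr1, Il7r and Satb1 move from below to above 0.

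The WT libraries differed from each other by an amount that varied between members. WT replicate 1 was the highest of the 6 libraries for 8 of the 9 genes, all but Klf2. For Tcf7, Lef1, Ccr7, S1pr1, Il7r and Satb1 it was at least 1.2-fold above each of the other WT libraries, a bound chosen after the values were seen. These are 6 of 9 members, and 13.7% of 14666 tested genes lay as far above. Against the mean of WT replicates 2 and 3, WT replicate 1 was 2.06-fold higher for S1pr1, 1.62-fold for Ccr7, 1.55-fold for Satb1, 1.49-fold for Il7r, 1.41-fold for Tcf7 and 1.26-fold for Lef1. For Bach2, Foxo1 and Klf2 the same ratio was 1.04, 1.11 and 1.04. The coefficient of variation over the 3 WT libraries was 2.32% for Bach2 and 6.58% for Foxo1, where it ran from 13.1% (Klf2) to 45.6% (S1pr1) in the other 7. In the KO libraries it was at most 6.06% for 8 genes, and 13.5% for Klf2. The same library also had the most Il17a (104 CPM, with 52.4 and 43.1 CPM in the other WT libraries), Il17f and Cd4. Among the Th17 markers it was the highest WT library for all but Rora. For Rora it was the lowest WT library (75.2 CPM, with 84.3 and 93.4 CPM in WT replicates 2 and 3). The part of that library's other differences in the member values was not tested.

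**Figure D3:**
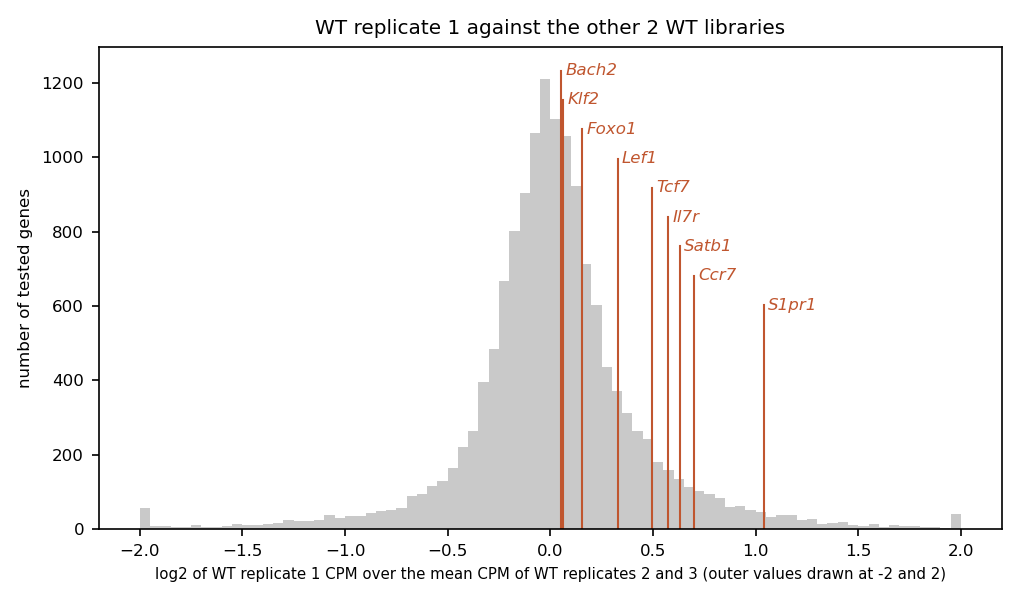
Distribution over tested genes of the log2 ratio of WT replicate 1 CPM to the mean CPM of WT replicates 2 and 3 (grey bars, number of genes), with the 9 genes as labelled lines. S1pr1 (1.04), Ccr7 (0.70) and Satb1 (0.63) lie in the upper tail, and Bach2 (0.054) and Klf2 (0.062) near the centre.

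The order of levels between genes is not given, because the count table holds no gene lengths and CPM depends on length.

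Related genes were read in 8 lists of 126 genes in all, of which 118 were tested. Of these, 10 were lower and 7 higher, or 17 called, where 6.39% of all tested genes were called. Without WT replicate 1, 31 of the 118 were lower and 20 higher, where 9.12% of 15039 tested genes were lower and 10.6% higher. Calls were thus more frequent over all genes in that fit, and the counts it gave for single lists below stand beside those shares. Among the other FOXO factors and the PI3K and AKT genes that control them, 1 of 18 was lower and none higher. That gene was Phlpp1, a phosphatase that removes an activating phosphate from AKT, whose mean went from 65.2 ± 5.63 CPM (WT) to 44.2 ± 2.47 CPM (KO; log2 fold change -0.56 ± 0.075, adjusted p = 0.00145). Foxo3, a close relative of Foxo1, was at 70.0 ± 1.57 and 64.1 ± 0.307 CPM (-0.13 ± 0.053, adjusted p = 0.190), and Foxo4 at 14.3 ± 0.860 and 11.1 ± 1.14 CPM (-0.36 ± 0.11, adjusted p = 0.0771). Both passed without WT replicate 1 (adjusted p = 0.0479 and 0.0470). Sgk1, a kinase that can also phosphorylate FOXO factors, was at 15.4 ± 1.84 and 19.5 ± 1.25 CPM (0.34 ± 0.11, adjusted p = 0.0874) and passed without that library (0.43, adjusted p = 0.00138). In that fit 6 genes of the list were lower and 1 higher.

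Of 16 further genes known as FOXO targets, 3 were lower and 1 higher, 15 fitted values were below 0 (51.3% of all tested genes) and the median was -0.16. Without WT replicate 1 the median was -0.090, with 5 lower and 2 higher. Bcl2l11, which encodes the death factor BIM, was at 23.1, 27.4 and 28.2 CPM in WT and 18.3, 16.0 and 16.5 CPM in KO. The groups were apart, with a log2 fold change of -0.63 ± 0.10 (adjusted p = 0.00361), the largest fall of the list. The cell cycle inhibitor gene Cdkn1b (-0.30 ± 0.078, adjusted p = 0.0409) and Klhl24 (-0.26 ± 0.068, adjusted p = 0.0431) were the other lower genes, and Cat, the catalase gene, was higher (0.33 ± 0.068, adjusted p = 0.0175). None of these 3 calls held in more than 2 of the 6 leave-one-out fits, where the highest adjusted p was 0.197, 0.204 and 0.123. Sesn3, a stress-response gene, was at 79.9 ± 11.8 and 63.0 ± 4.43 CPM without passing (-0.34 ± 0.098, adjusted p = 0.0687), and it passed without WT replicate 1 (-0.21, adjusted p = 0.00763) and without WT replicate 3 (-0.39, adjusted p = 0.0450).

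Of 10 relatives, partners and corepressors of BACH2, 1 was higher and none lower (2 and 1 without WT replicate 1). Hmox1, the heme oxygenase gene that BACH factors repress in many cells, was at 86.8, 100.2 and 102 CPM in WT and 159, 148 and 151 CPM in KO. It rose by 0.67 ± 0.065 on the log2 scale (adjusted p = 1.57e-04), with no overlap. Bach1, the other BACH factor, was at 18.4 ± 2.77 and 23.9 ± 2.87 CPM (0.37 ± 0.12, adjusted p = 0.103). It passed without WT replicate 1 (0.27, adjusted p = 0.0475) and without WT replicate 3 (0.49, adjusted p = 0.0263). The small MAF genes Mafk, Maff and Mafg, partners of both, did not pass, with log2 fold changes of 0.068, -0.0095 and -0.0086.

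Effector and activation genes that act against the resting state were called in 6 of 14 cases, 4 higher and 2 lower (4 and 3 without WT replicate 1). Ifng, Gzmb, Tbx21 and Eomes were the higher ones (1.50 ± 0.20, 1.38 ± 0.041, 1.05 ± 0.12 and 0.90 ± 0.17), and Irf4 and the AP-1 family gene Batf, whose products bind DNA together, the lower ones (-0.31 ± 0.042 and -0.30 ± 0.058). Ifng did not pass when low counts were kept in (1.49, adjusted p = 0.0618). Prdm1, which encodes the BLIMP-1 repressor and is a known BACH2 target, was low, at 3.36, 3.44 and 3.23 CPM in WT and 3.76, 4.33 and 3.83 CPM in KO. Every KO value was the higher, but the change of 0.25 ± 0.16 did not pass (adjusted p = 0.418). Id2, a helix-loop-helix factor of effector cells, was at 131 ± 7.51 and 127 ± 5.53 CPM (-0.054 ± 0.058, adjusted p = 0.657). Eomes and Batf each missed the threshold in 3 of the 6 leave-one-out fits, where their highest adjusted p was 0.0761 and 0.0946.

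Relatives and cofactors of the HMG box factors and SATB1 had 1 of 11 lower and none higher. It was Tle3, a Groucho corepressor that TCF-1 and LEF-1 recruit (272 ± 7.91 and 230 ± 3.64 CPM, -0.24 ± 0.045, adjusted p = 0.00926). Tcf7l2, a relative of Tcf7, had at most 8 counts in a library and was not tested. Of 23 KLF relatives and other genes of T cell rest, 1 was lower and none higher, the antiproliferative gene Btg1 (421 ± 2.38 and 362 ± 11.9 CPM, -0.22 ± 0.043, adjusted p = 0.0119). Tle3 missed the threshold in 4 and Btg1 in 3 of the 6 leave-one-out fits, with highest adjusted p of 0.0830 and 0.0988. Without WT replicate 1 the list of KLF relatives had 7 lower and 2 higher genes and the list of HMG box and SATB1 relatives 4 lower and 1 higher. In that fit 9.12% of all tested genes were lower and 10.6% higher.

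Around S1pr1 and Ccr7, 1 of 15 genes of lymphocyte traffic was higher and none lower. The fit without WT replicate 1 had 6 higher and 2 lower, where 10.6% of all tested genes were higher and 9.12% lower. Spns2, a transporter that exports sphingosine 1-phosphate, was almost absent from the WT libraries, with 4, 0 and 4 counts, and reached 58, 22 and 48 counts in the KO replicates (adjusted p = 0.00468). Cd69, whose product holds S1PR1 inside the cell, was at 340 ± 33.3 and 345 ± 1.82 CPM (0.022 ± 0.064, adjusted p = 0.886). Cxcr4, the receptor for retention in bone marrow, was at 40.6, 21.8 and 19.2 CPM in WT and 12.8, 13.5 and 11.8 CPM in KO. The groups were apart without passing (-1.10 ± 0.27, adjusted p = 0.0653), and Cxcr4 passed without WT replicate 1 (-0.69, adjusted p = 5.78e-06), without WT replicate 3 (-1.30, 0.0216) and with the replicate block (-1.02, 0.0128). Of 11 genes of IL-7 signalling, 2 were lower and none higher (3 and 2 without WT replicate 1). They were Stat5a (-0.21 ± 0.039, adjusted p = 0.00918) and Stat5b (-0.18 ± 0.049, adjusted p = 0.0479), the factors that IL-7 and IL-2 activate, and both missed the threshold in 4 of the 6 leave-one-out fits (highest adjusted p 0.0819 and 0.180).

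**Figure D4:**
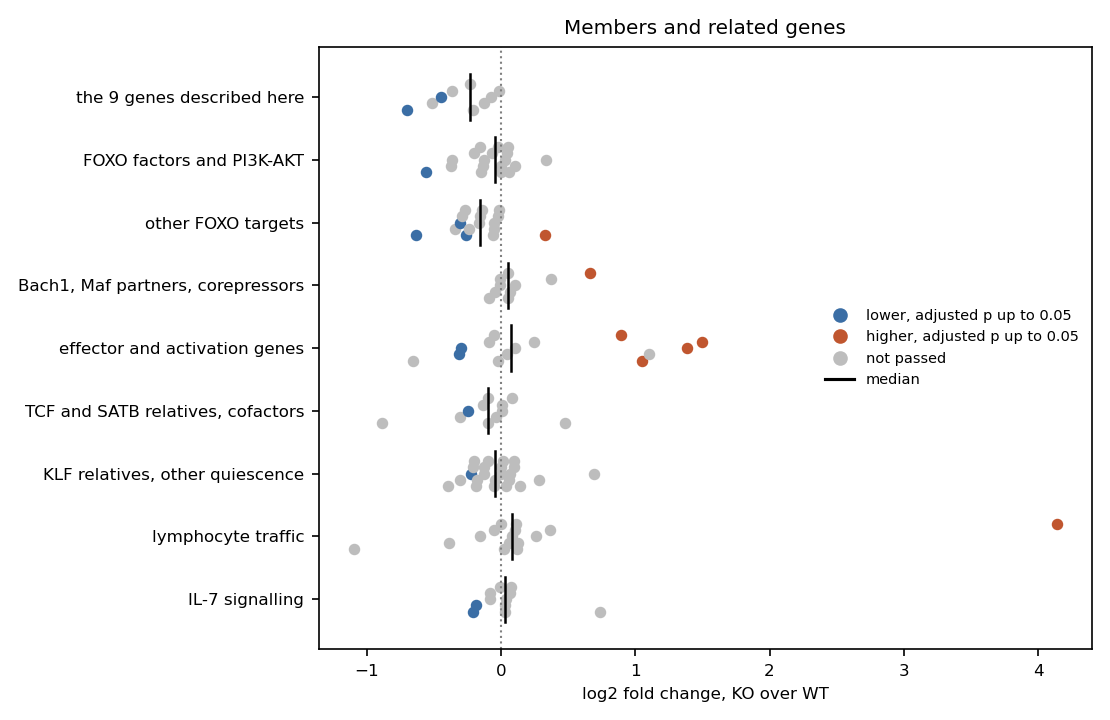
Log2 fold change, KO over WT, of the 9 genes and of the tested genes of the 8 related lists, one point per gene, with the median of each list as a black line and calls at an adjusted p up to 0.05 in blue (lower) and orange (higher). The 9 genes have a median of -0.23 and the other FOXO targets one of -0.16 (0.0054 and -0.090 without WT replicate 1), and the point near 4 is Spns2 at very low counts.

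The genes nearest to Bach2 and to Foxo1 in profile were sought among 6964 genes of at least 20 CPM, by the root mean square difference of log2 CPM over the 6 libraries after centring each gene on its mean. Nearest to Bach2 were Fam53b (0.0483), Lrig1 (0.0492), Ccr4 (0.0618), Zhx2 (0.064) and Tead1 (0.0964). Lrig1 encodes a membrane protein that restrains growth factor receptors, Ccr4 a chemokine receptor of helper T cells, Zhx2 a zinc finger homeobox repressor and Tead1 a factor of the Hippo pathway. Their log2 fold changes ran from -0.79 ± 0.061 for Ccr4 to -0.56 ± 0.069 for Tead1. Nearest to Foxo1 were Msi2, Ski, Zfp36l2, Lbh and Plagl1, at 0.0433 to 0.0466. Msi2 and Zfp36l2 encode RNA-binding proteins, the latter promoting mRNA decay, and Ski a corepressor of TGF-beta signalling. Their log2 fold changes ran from -0.46 ± 0.056 for Zfp36l2 to -0.38 ± 0.054 for Msi2. All 10 were lower with a call, where 3.45% of all 7163 tested genes of at least 20 CPM were, a set that also holds the predicted genes and pseudogenes left out of the search. These genes were picked for a profile that includes the difference between groups, so their changes are a description. Among the 9 genes themselves the nearest pairs were Tcf7 with Il7r (0.0667) and Il7r with Satb1 (0.0717), and the farthest was Bach2 with S1pr1 (0.405). Bach2 and Foxo1 were 0.14 apart.

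**Figure D5:**
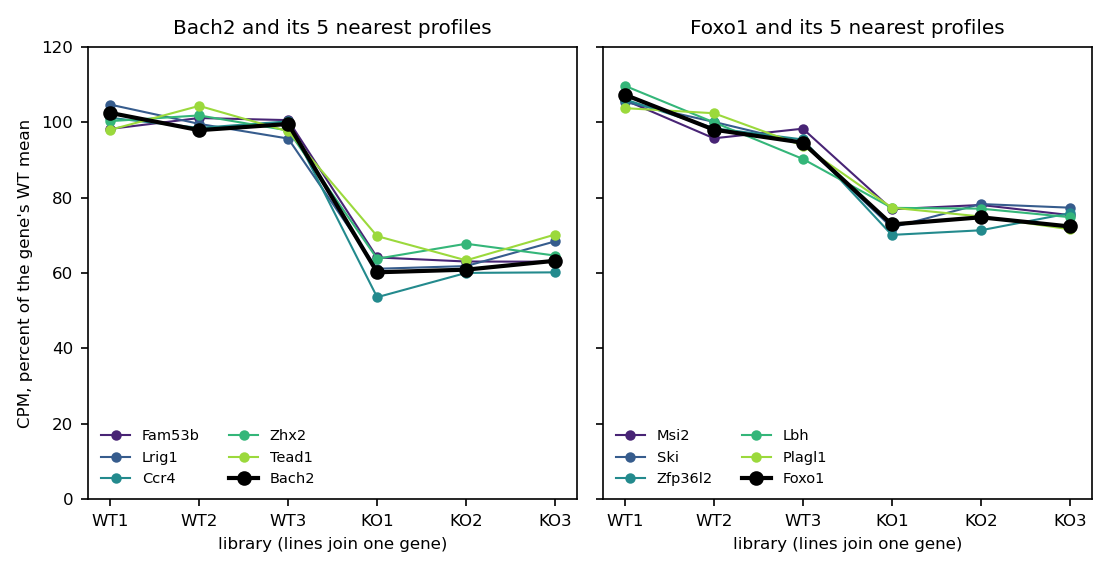
CPM of Bach2 (left) and Foxo1 (right, both black) and of the 5 genes nearest to each in profile, as a percent of each gene's WT mean, in the 3 WT and 3 KO libraries. All 6 genes of each panel lie lower in every KO library than in any WT library.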

How the data were processed

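Reads were assigned by the authors to exons and summed by gene ID, using featureCounts 2.0.1 with GENCODE vM33, per the file headers, and the deposited values are unnormalized counts. The 5 of 6 commands printed in full set no strand and no paired-end option, so overlapping and antisense genes cannot be separated, and the sources used here give no genome build. Of counts from 1 to 20, 65.6% to 67.7% were even, against 48.8% to 50.9% at 1000 counts or more, and what makes them even was not tested. The column of WT replicate 2 is recorded here as other, but its deposited values are raw counts like the rest. Columns were matched to libraries through the commands, and gene IDs to symbols (91.2% of 56941; Tle5 under its older symbol Aes). The other 7 of 13 samples (ChIP-seq, ATAC-seq, CUT&Tag) were not used here.

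The 3 KO and 3 WT libraries were compared with edgeR 4.0.16 (R 4.3.3): default low-count filter, TMM, robust quasi-likelihood F-test, Benjamini-Hochberg adjustment over 14681 genes, threshold 0.05. CPM uses TMM library sizes, and each SE is the fitted change divided by the root of its F statistic. The test was checked on simulated counts. Members and lists were chosen with earlier results of these data known. Named were all members, called list genes (at most 5 a list), 8 fixed genes, of which 1 is not reported here, and the 5 nearest profiles of Bach2 and Foxo1. Mafk, Maff, Mafg, Foxo4, Sesn3, Cxcr4 and genes of the marker lists were named after their values were seen. Alternatives were other factors (RLE, upper quartile), no or a stricter filter (5 CPM in 3 libraries), DESeq2 1.42.0, limma 3.58.1 voom with and without quality weights, the replicate block and leaving out each library.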

Additional observations from a re-analysis of the deposited data

How the results depend on the processing

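Bach2 and Foxo1 stayed lower and past the threshold in all 14 alternatives tried. Lef1 passed with no filter on low counts (-0.23) and without WT replicate 3, and Ccr7 with quality weights per library (-0.36). With quality weights the values of Tcf7, Il7r and Cd69 changed sign to 0.049, 0.041 and -0.0033. Over fits without 1 library the log2 fold change ran from -0.17 to 0.11 for Tcf7, -0.30 to -0.11 for Lef1, -0.14 to 0.065 for Klf2, -0.59 to 0.073 for S1pr1, -0.22 to 0.092 for Il7r, -0.35 to 0.035 for Satb1 and -0.051 to 0.089 for Cd69.

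Of the related genes 10 were lower and 7 higher, with 19 lower when no filter was used, 17 lower with DESeq2's Wald test, and 30 lower and 15 higher with quality weights. Leaving out 1 library gave 3 to 31 lower and 5 to 20 higher, the most without WT replicate 1. Over all genes 362 were lower and 576 higher. The lower count came to 746 unfiltered, 569 by the Wald test of DESeq2 and 231 under the replicate block, quality weights gave 1335 lower and 1527 higher, and leaving out 1 library gave 70 to 1372 lower and 225 to 1589 higher, fewer without WT replicate 2 or any KO library and more without WT replicate 1 or 3. The causes of these shifts were not tested. Deviations from the group means were hardly correlated between same-numbered libraries (-0.040 to 9e-04) or between differently numbered ones (-0.0447 to 0.0646). The labels do not say whether libraries were paired, and these correlations cannot decide it. With the replicate block Bach2 and Foxo1 kept their calls (-0.70 and -0.45), and the calls of Cdkn1b, Klhl24 and Stat5b were lost (adjusted p = 0.0690, 0.0666 and 0.0898), while Cxcr4 passed (adjusted p = 0.0128). Klf2, at 116 to 163 counts per library, did not enter the fit with the stricter filter. Foxo4, Sgk1, Bach1 and Sesn3 also passed with no filter, the Wald test and quality weights (adjusted p for Bach1 0.0060, 0.046 and 0.022), Foxo3 with quality weights, and Cxcr4 with the stricter filter, the Wald test and quality weights.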
